A study of Mus musculus with 10 samples.

Results

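αTC1 is a mouse glucagon-producing line of pancreatic tumour origin, and the data below are the baseline transcriptome of that line in 5 libraries labelled DMSO, out of 10 libraries in the series. The 5 were chosen by their treatment label alone. The other 5 libraries were made from αTC1 cells exposed to 10 μM enzalutamide, an antiandrogen, for 48 h, and their columns were not used here. The series title concerns β cell formation from α cells. The cells of the 5 libraries had DMSO, the solvent, for 48 h, in low-glucose medium with fetal bovine serum, penicillin and streptomycin. Polyadenylated RNA was captured from total RNA before the libraries were built. The line came originally from mice in which the SV40 large T antigen was driven by the glucagon gene promoter, so the cells divide and carry a viral oncogene, and the clone is not given in the labels. The labels number the libraries as biological replicates 1 to 5 but leave out whether cultures or days were separate, so every spread below measures the differences between these libraries. All 5 come from 1 cell line.

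Glucagon is cut from proglucagon, the product of Gcg, by the prohormone convertase PC2 and is stored in dense-core granules until calcium entry releases it into the blood, where it raises hepatic glucose output. The α cell identity is held by transcription factors such as Irx1 and Irx2, whereas β cells depend on Pdx1, Nkx6-1 and Mafa, and δ cells express Hhex and the somatostatin gene Sst. Excitability of the α cell rests on ATP-sensitive potassium channels and on voltage-gated sodium and calcium channels, and its secretion is tuned by amino acids, adrenaline and peptides of neighbouring islet cells.

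The stretches before the annotated start of 3 islet hormone genes are shown because these genes stood at opposite ends of the data: Gcg was the most abundant nuclear transcript, and the insulin gene Ins1 and the somatostatin gene Sst had 0 counts in every library. Each stretch holds the 250 bases before the gene's start in RefSeq on GRCm38.p6, 5′ to 3′ on the gene's strand. The positions are chr2:62483654-62483903 on the minus strand for Gcg, chr19:52264047-52264296 on the plus strand for Ins1, and chr16:23890845-23891094 on the minus strand for Sst. Capitals mark every match, on either strand, to TATAAA, the core of a TATA box, to CAGATG, an E box sequence, or to TGACGTCA, the full cAMP response element, which do not overlap one another here.
Gcg: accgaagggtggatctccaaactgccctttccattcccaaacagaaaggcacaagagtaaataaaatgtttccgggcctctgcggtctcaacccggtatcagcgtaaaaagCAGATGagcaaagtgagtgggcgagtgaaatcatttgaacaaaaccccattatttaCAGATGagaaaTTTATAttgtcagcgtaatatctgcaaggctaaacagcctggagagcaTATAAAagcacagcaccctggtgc
Ins1: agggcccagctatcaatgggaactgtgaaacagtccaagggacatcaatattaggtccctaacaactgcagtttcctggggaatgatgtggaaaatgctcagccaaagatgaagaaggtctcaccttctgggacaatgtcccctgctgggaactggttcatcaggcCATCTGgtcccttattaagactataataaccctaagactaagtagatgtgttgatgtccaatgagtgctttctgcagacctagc
Sst: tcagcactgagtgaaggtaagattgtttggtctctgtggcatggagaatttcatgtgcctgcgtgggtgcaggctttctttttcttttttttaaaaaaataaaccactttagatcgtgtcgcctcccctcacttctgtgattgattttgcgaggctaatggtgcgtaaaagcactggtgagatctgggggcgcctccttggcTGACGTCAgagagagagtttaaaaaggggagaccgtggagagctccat
The Gcg stretch held 2 matches to TATAAA and 2 to CAGATG, the Ins1 stretch 1 match to CAGATG, and the Sst stretch 1 match to TGACGTCA. Among 32851 such stretches of RefSeq genes, 12.4% held TATAAA, 14.4% held CAGATG and 1.55% held TGACGTCA on either strand. CAGATG thus occurred before a gene at the top of these libraries and before one with no counts. The matches are letters in these windows, and where an annotated start lies away from the start used in cells the window is displaced with it.

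Column totals of the deposited counts ran between 64557371 and 68603842 per library. Levels are given as CPM, the count of a gene per 1000000 counts of the library's column total, for 1 gene across libraries, and as TPM, which also divides by exon length, wherever genes are compared with each other. Every ± is the SD over the 5 libraries (n = 5). A count of 0 allows up to 3 counts, which is 0.0437 to 0.0465 CPM at these depths and covers counting error only. That limit takes 1 count as 1 read, which need not hold for these counts. A gene is called present at 1 CPM or more in each of the 5 libraries, undetected at 0 counts in each, and trace in between. Of the 33212 genes measured, 11417 were present (34.4%), 7879 were trace and 13916 were undetected. Of 21248 protein-coding genes 10820 were present (50.9%), and the median protein-coding gene stood at 1.82 CPM. Those shares are the background for the list counts below. In log2 CPM, every pair of libraries correlated across genes with an r between 0.996 and 0.997, as a description of genes that share libraries. The chi-square between pairs was 11.0 to 16.9 per gene, above sampling noise if 1 count is 1 read. Where 1 read gives several counts this value is inflated, so it does not settle whether pairs agreed within sampling noise.

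The cells' transcript pool was led by the respiratory chain mRNAs of the mitochondrial genome and by glucagon. The 10 most abundant genes took 7.41 ± 0.152% of counts and the top 100 took 18.4 ± 0.146%, and 57 genes had a mean of at least 1000 CPM. All mitochondrially encoded genes together took 6.33 ± 0.188%, and the 86 ribosomal protein genes 2.29 ± 0.0809%. The mitochondrial mt-Co1, a subunit of cytochrome oxidase, was first with 16922, 16109, 16555, 16049 and 16412 CPM in libraries 1 to 5. Gcg was second with 15447, 14545, 15561, 15081 and 14787 CPM and made up 1.51 ± 0.0429% of all counts. Gnas, which encodes the stimulatory G protein α subunit and neuroendocrine proteins from overlapping transcripts, took the next largest share of counts among nuclear genes, with 4428 ± 108 CPM. Peg3, a paternally expressed zinc finger gene, followed with 2944 ± 72.9 CPM.

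Per length, Gcg reached 32038 ± 751 TPM, 10.5 ± 0.326 times the TPM of the thyroxine carrier gene Ttr, 9.81 ± 0.141 times that of the granule protein gene Scg2 and 18.7 ± 0.994 times that of Gapdh, the glycolytic enzyme. The next nuclear protein-coding genes by TPM were Ftl1, the ferritin light chain (5226), Ptma, prothymosin α (4920.0), Scg2 (3266) and Ttr (3047). Rbp4, the retinol carrier, reached 2875 ± 94.3 TPM and did not differ from the elongation factor gene Eef1a1 (2891 ± 68.3) beyond their SDs. Length here is that of all annotated exons. With the longest transcript as length Gcg had 34664 TPM, still above Ftl1 (5701) and Ptma (4661), whereas Eef1a1 (3166) passed Scg2 (2574), Rbp4 (2621) and Ttr (2401). The pseudogenes Gm10222, a copy of mitochondrial sequence, and Gm8730, a processed ribosomal protein copy, had 9168 and 2544 TPM. Such copies share sequence with their parents and their values are uncertain, because how multi-mapping reads were handled is not given in the sources used here.

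**Figure D1:**
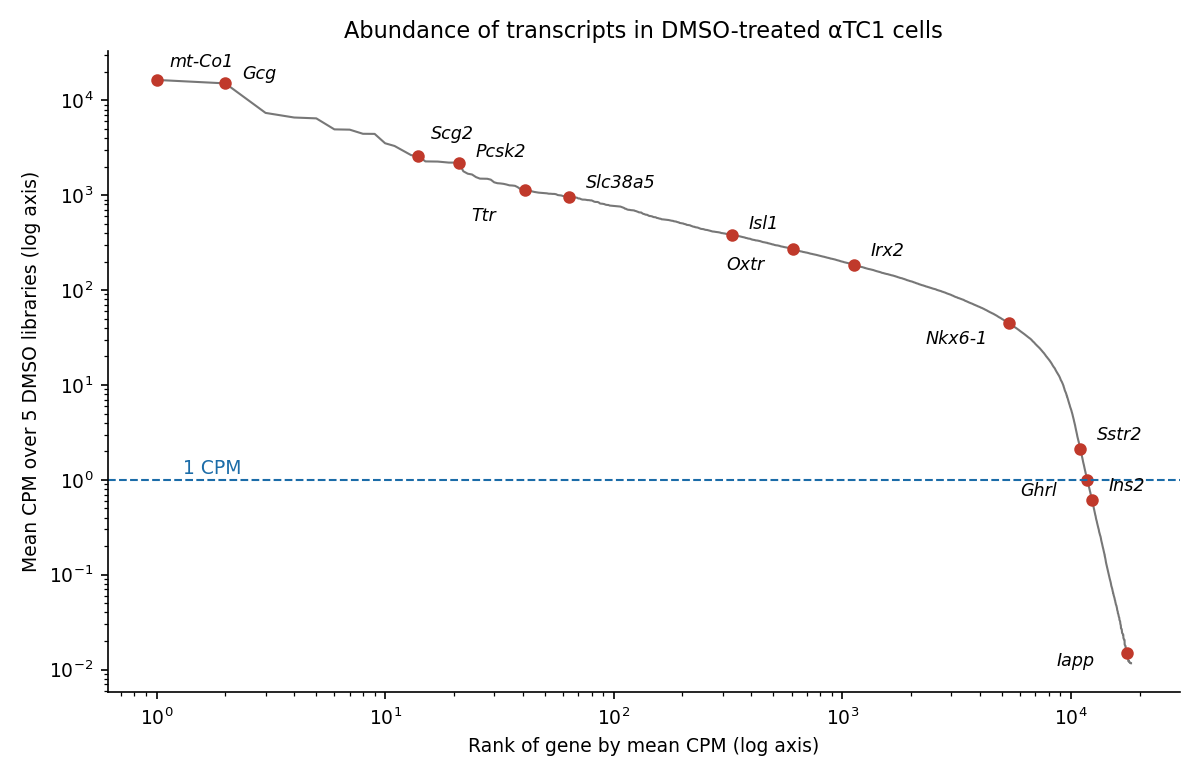
Genes ordered by mean CPM over the 5 DMSO libraries (log axes; 1 line through all genes above 0.01 CPM, red points for named genes, dashed line at 1 CPM). mt-Co1 and Gcg stand at ranks 1 and 2, Ttr at rank 41 and Irx2 at rank 1123, while Ins2 and Iapp lie on the steep end of the curve under 1 CPM.

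The α cell label held up on its markers. Of 12 α cell markers 11 were present, with a median of 168 CPM and a summed level between 20234 and 21339 CPM. Ttr had 1213, 1090.4, 1202, 1102 and 1087 CPM in libraries 1 to 5, and Irx2, an Iroquois homeobox factor (chromosome 13, 72628820 to 72634198 of GRCm38), had 186, 188, 179, 182 and 190.5 CPM. Both were high in all 5 libraries. Pcsk2, the PC2 convertase that cuts glucagon out of proglucagon, had 2219, 2188, 2174, 2174 and 2232 CPM. The amino acid transporter genes Slc38a5, for glutamine, and Slc7a2, for arginine, had 962 ± 29.0 and 763 ± 28.7 CPM. The one marker without a count was Gc, the vitamin D binding protein, which marks adult α cells and had 0 counts in all 5 libraries.

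β cell markers split into a present and an absent group. Of 15 listed, 6 were present, 5 were trace and 4 were undetected (median 0.618 CPM). Slc30a8, the zinc transporter of secretory granules, had 334, 339, 338, 337 and 334 CPM, and Prlr, the prolactin receptor, 112, 116, 112, 118 and 118 CPM. The β cell factor Nkx6-1 was present at 42.6, 47.5, 42.7, 44.0 and 46.6 CPM, with 45.2 ± 2.49 TPM. Hadh, a fatty acid oxidation enzyme, Ero1lb, an oxidase of the endoplasmic reticulum, and G6pc2, the islet glucose-6-phosphatase, completed the present group at 67.5 ± 2.26, 28.2 ± 1.58 and 23.5 ± 0.747 CPM.

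The insulin genes and, unlike Nkx6-1, the β cell factors Pdx1 and Mafa were near or at 0. Ins1, Pdx1, the urocortin gene Ucn3 and the incretin receptor gene Glp1r had 0 counts in each library. Ins2 had 36, 28, 43, 53 and 47 counts, or 0.558, 0.426, 0.632, 0.773 and 0.702 CPM, above 3 counts in every library and under 1 CPM in each. In a bulk sample a few cells with much of a transcript and many cells with little cannot be told apart. Mafa, a factor of mature β cells, had 1.61, 0.594, 0.411, 2.03 and 0.448 CPM, with libraries 1 and 4 above 1 CPM and the other 3 below it. Slc2a2, the GLUT2 glucose transporter, had 0, 9, 4, 0 and 5 counts, and Iapp, the amylin gene, 0, 0, 0, 0 and 5. Trpm5, a calcium-activated cation channel, lay at 0.106 to 0.496 CPM.

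Among markers of δ, PP and ε cells 1 of 7 was present. That gene was Rbp4 at 1218, 1232, 1264, 1217 and 1153 CPM, and without it the list's defining genes were low or empty: Sst, Hhex, Ppy and Pyy, which encode somatostatin, a δ cell factor and the hormones of the pancreatic polypeptide family, had 0 counts. The ghrelin gene Ghrl had 0.867, 1.28, 0.911, 1.14 and 0.821 CPM, with libraries 2 and 4 above 1 CPM, and its receptor gene Ghsr 0.542, 1.05, 0.896, 0.977 and 0.642 CPM.

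**Figure D2:**
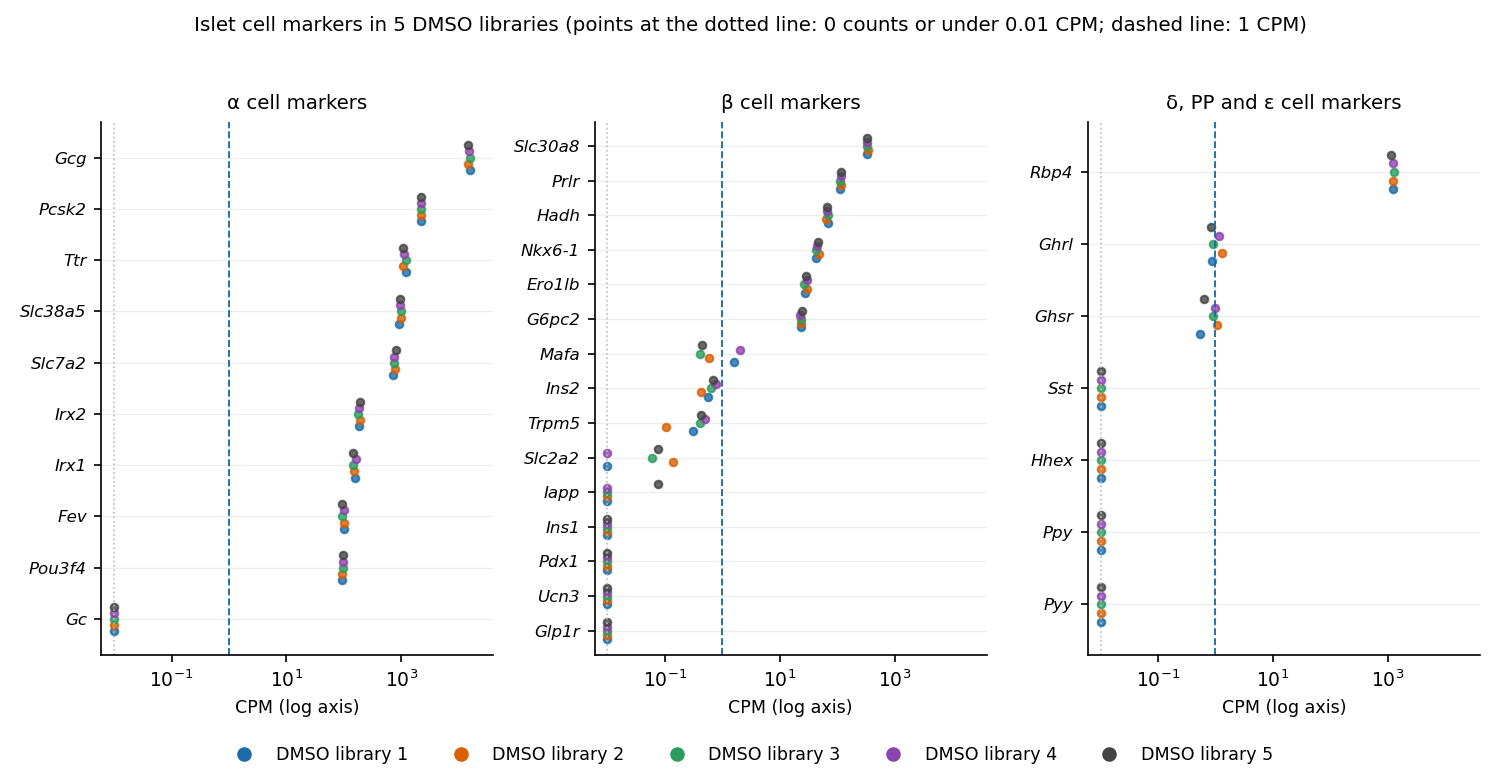
CPM (log axis) of α, β and δ/PP/ε cell markers (not all list members are drawn), 1 colour per DMSO library, with a dashed line at 1 CPM and points on the dotted line for 0 counts or under 0.01 CPM. The α panel lies well to the right of the dashed line apart from Gc, whereas the β panel divides into 6 genes to the right of it and 9 that cross it or lie to its left.

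Markers of other cell types differed by list, from 0 present for endothelial, immune and erythroid markers to 42.9% of duct and 50.0% of glial markers, which lie near the 50.9% of all protein-coding genes. Of 12 acinar markers 2 were present, among them Cela1, an elastase (6.65 ± 0.914 CPM), while 8 had 0 counts, among them Cpa1, Pnlip, Ctrb1 and Ptf1a, the defining enzymes and factor of that cell. The acinar sum was at most 24.3 CPM in any library. Duct markers had 3 of 7 present, among them the factor Sox9 (11.3 ± 0.237 CPM) and Spp1, osteopontin (2.56 ± 0.698 CPM), and the duct keratin Krt19 and the chloride channel Cftr at 0 (sum 19.3 to 21.8 CPM). Fibroblast and stellate markers had 1 of 8 present, the receptor Pdgfra at 5.92 ± 0.375 CPM, and the collagen gene Col3a1 and the actin gene Acta2 at 0 (sum 6.52 to 7.65 CPM). Endothelial markers had 0 of 7 present (sum 1.31 to 2.08 CPM, Kdr and Cdh5 at 0), immune markers 0 of 8 (0.911 to 2.74 CPM, Ptprc and Cd3e at 0) and erythroid markers 0 of 6 (0.365 to 1.24 CPM). Glial markers had 3 of 6 present, led by the myelin gene Mbp at 23.6 ± 1.21 CPM, with the glial factor Sox10 at 0 (sum 27.5 to 30.7 CPM). Hepatocyte markers had 2 of 7 present, the albumin gene Alb (2.86 ± 0.600 CPM) and the apolipoprotein gene Apoa2 (1.52 ± 0.237 CPM), with a sum of 4.83 to 6.43 CPM. The part of other cells in these low values was not tested.

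Few hormone genes besides Gcg were present. Of 51 hormone and neuropeptide precursor genes 7 were present (13.7%), 28 were trace and 16 had 0 counts, with a median of 0.0274 CPM. The present genes were Gcg, the granins Scg2 (2606, 2542, 2660.1, 2568 and 2566 CPM), Chga (1265, 1336, 1288, 1287 and 1302 CPM) and Chgb (189 ± 3.22 CPM), the neurotrophin-induced granule peptide Vgf (95.3 ± 3.05 CPM), the angiotensin precursor Agt (13.9 ± 1.63 CPM) and the proopiomelanocortin gene Pomc (6.11 ± 0.573 CPM). Calca, the calcitonin gene, was a trace gene near the threshold, at 0.604, 1.20, 1.53, 1.37 and 1.39 CPM. Genes with 0 counts in each library included Gip, Vip, Sct, Tac1, Avp, Crh and Edn1, which encode the incretin GIP, vasoactive intestinal peptide, secretin, substance P, vasopressin, corticotropin-releasing hormone and endothelin.

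The granule machinery that serves glucagon was nearly complete, with 19 of 24 genes present (79.2%) and a median of 152 CPM. Processing enzymes were unequal. Pcsk2 reached 882 ± 11.3 TPM and the carboxypeptidase gene Cpe 498 ± 36.6 TPM, a ratio of 1.78 ± 0.149, while Pcsk1, the PC1/3 convertase that cuts proinsulin and yields GLP-1 from proglucagon in the gut, had 0, 8, 0, 0 and 8 counts in libraries 1 to 5. Pcsk1n, whose product inhibits PC1/3, was present at 253 ± 8.56 CPM, and Scg5, the 7B2 chaperone of PC2, at 143 ± 5.04 CPM. Pam, the peptide amidating enzyme, had 1119.7 ± 42.5 CPM and the granule membrane phosphatase-like genes Ptprn and Ptprn2 had 1164 ± 27.0 and 283 ± 8.04 CPM. Granule tethering genes were split, with Rab27a (47.3 ± 1.80 CPM) and Rab3a (79.6 ± 2.01 CPM) present and their effector Sytl4, granuphilin, at 0 counts.

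Fusion proteins were broadly present, with 25 of 32 SNARE and vesicle fusion genes at 1 CPM or more in each library and a median of 30.9 CPM. Cplx1, a complexin (874 ± 26.6 TPM), and the synaptotagmin relative Syt13 (628 ± 9.85 TPM) were among the highest per length. Among other synaptotagmins, Syt4 and Syt7 stood at 118 and 97.5 TPM and Syt9 and Syt1 at 46.6 and 5.31 TPM, whereas Syt8 and Syt10 had 0 counts. Among t-SNAREs the neuronal Snap25 exceeded the ubiquitous Snap23 per length by 2.71 ± 0.0857 times, and Stx4a (51.4 ± 1.27 TPM) exceeded Stx1a (28.9 ± 1.34 TPM). Priming factors differed by paralogue: Unc13a had 248 ± 13.0 CPM and Unc13b 0.301 ± 0.136, and Cadps had 19.2, 19.4, 17.6, 20.1 and 18.6 CPM with Cadps2 at 0.

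Genes for small transmitters were mostly under the threshold, with 6 of 18 present and a median of 0.186 CPM. The aromatic amino acid decarboxylase Ddc (206 ± 5.35 CPM), the monoamine oxidases Maob (83.2 ± 4.40 CPM) and Maoa (68.4 ± 3.07 CPM) and the GABA transaminase Abat (60.8 ± 1.55 CPM) were present. The vesicular monoamine transporters Slc18a2 (5.25 ± 0.579 CPM) and Slc18a1 (1.65 ± 0.221 CPM) were low. Gad2, the glutamate decarboxylase of GABA synthesis, the vesicular glutamate transporter genes Slc17a6 and Slc17a8, and Tph1, Dbh and Chat, of serotonin, noradrenaline and acetylcholine synthesis, had 0 counts.

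Endocrine transcription factors showed a clear order per length. Of 56 listed, 37 were present (66.1%), 9 trace and 10 undetected, with a median of 22.3 CPM. Isl1, a LIM factor of all islet endocrine cells, led with 304 ± 7.48 TPM and 391, 375, 369.6, 372 and 386 CPM. Next came Fev, an ETS factor (190.3 ± 10.5 TPM), Neurod1, a bHLH factor of endocrine differentiation (186 ± 9.65), the ETS factor Etv1 (184 ± 5.33), Irx1 (183 ± 10.6) and Irx2 (179 ± 4.85). These 5 did not differ from their neighbours in the order by more than their SDs. Below them stood Nkx2-2, a homeodomain factor (141 ± 6.34 TPM), the forkhead factor Foxa2 (111 ± 2.86) and the POU factor Pou3f4 (103 ± 2.18). Nkx2-2 stood above Foxa2, and Foxa2 above Pou3f4, by more than the SD of either. With the longest transcript as length Isl1 stayed first (377 TPM) and Etv1 moved to second (293 TPM), ahead of Fev (163), Irx1 (159.5) and Neurod1 (147).

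A middle tier held Myt1, Sox4, Nkx6-1, Prox1 and Rfx6, all factors of endocrine development, at 46.9 ± 1.04, 46.3 ± 2.69, 45.2 ± 2.49, 43.6 ± 2.58 and 43.4 ± 1.09 TPM, and neighbours in that order did not differ beyond their SDs. Pax6, which binds the Gcg promoter, had 29.8 ± 0.519 TPM, but 62.1 TPM with the longest transcript as length. Nkx6-2, the close relative of Nkx6-1, was also present, with 24.9, 18.2, 22.8, 24.3 and 18.5 CPM and libraries 1 and 4 at the high end. Insm1, a zinc finger factor of endocrine cells, had 27.9, 16.0, 20.5, 31.0 and 22.0 CPM, again with libraries 1 and 4 above the other 3. The endocrine progenitor factor Neurog3 had 11, 0, 0, 0 and 0 counts. Besides Pdx1, the genes Pax4, Foxa1, Hnf4a, Onecut1, Ptf1a, Hhex, Sox11, Lmx1a and Lmx1b had 0 counts in each library. For some of these a paralogue was present: Foxa2 for Foxa1, and Onecut2 (122 ± 4.36 CPM) for Onecut1.

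**Figure D3:**
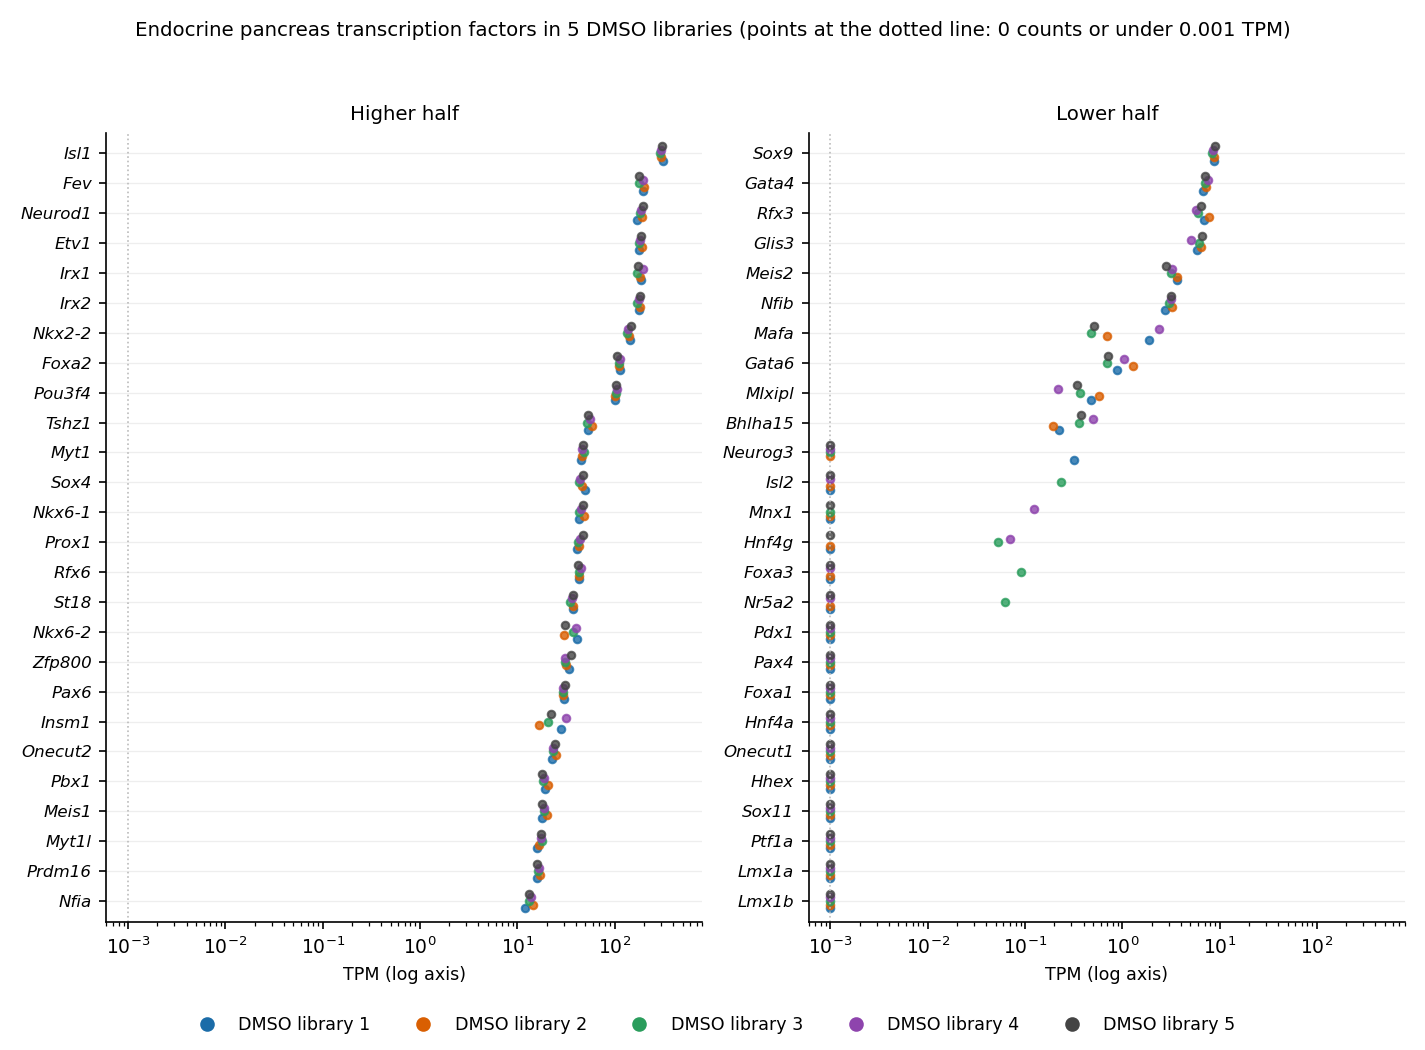
TPM (log axis) of endocrine pancreas transcription factors (not all list members are drawn), highest first, 1 colour per DMSO library, with points on the dotted line for 0 counts. Isl1 is at the top at a mean of 304 TPM, every gene of the left panel is present, and the last 10 genes of the right panel have no count in any library.

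Factors of other lineages were largely silent, with 8 of 49 present (16.3%), 29 undetected and a median of 0. Gata2, a blood and neuronal factor (49.8, 43.2, 41.7, 43.8 and 44.7 CPM), and Nkx2-5, a heart factor (20.8, 20.2, 18.8, 19.3 and 18.9 CPM), led the list per length as well, at 26.2 and 36.2 TPM. Mitf, of pigment cells, Runx1, of blood, and Pax3, of neural crest and muscle, had 10.7 ± 0.831, 8.10 ± 1.12 and 7.85 ± 0.808 CPM. Pluripotency and germ layer factors Pou5f1, Nanog, Sox2, Sox17 and Eomes had 0 counts, as did the muscle factors Myod1, Myog and Myf5 and the intestinal factors Cdx1 and Cdx2. Of 38 Hox genes measured, 6 were present, and 5 of those lie in the HoxA cluster: Hoxa10 (9.57 ± 1.21 CPM), Hoxa6 (9.38 ± 0.776), Hoxa5 (9.24 ± 0.770), Hoxa9 (6.94 ± 0.978) and Hoxa3 (2.38 ± 0.512). The remaining one was Hoxb13, a posterior HoxB gene with 9.65, 8.86, 8.37, 8.51 and 8.76 CPM, while its cluster neighbours Hoxb9, Hoxb2 and Hoxb1 had 0 counts. All HoxD genes in the table were undetected. Neighbouring Hox genes overlap and the strand setting of the counting is not given, so single HoxA values are less certain.

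In the Sox family 5 of 20 genes were present, Sox12 (92.4 ± 5.85 CPM), Sox5 (90.1 ± 3.71), Sox4 (70.0 ± 4.09), Sox9 and Sox8 (1.51 ± 0.399), and 12 had 0 counts. In the forkhead family 19 of 44 were present. Foxm1, which drives mitotic genes, was highest per length at 167 ± 4.43 TPM, then Foxk2 (151 ± 4.36), Foxa2 and Foxf2 (82.6 ± 7.45), a factor otherwise known from gut mesenchyme. The insulin-regulated Foxo3 and Foxo1 had 23.6 and 12.6 TPM.

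Nuclear receptor genes were present in 26 of 49 cases (53.1%), close to the 50.9% of all protein-coding genes. The genes Pgr, Thrb, Hnf4a, Rxrg, Nr1i2, Nr0b1 and Nr2e1 had 0 counts in all 5 DMSO libraries. Of the steroid receptors Nr3c1, the glucocorticoid receptor, was present with 67.2, 69.4, 69.8, 69.1 and 74.0 CPM and Nr3c2, the mineralocorticoid receptor, with 14.8 ± 0.745. The oestrogen receptor gene Esr1 had 0, 1, 1, 1 and 0 counts. Thra, the thyroid hormone receptor α, stood at 65.4 ± 1.66 TPM beside the orphan receptor genes Nr1d1 (69.1 ± 1.96) and Esrra (66.3 ± 3.49). Esrra did not differ from either by more than its SD, although with the longest transcript as length Thra (97.0) and Esrra (92.1) exceeded Nr1d1 (61.6). The activity-induced Nr4a1 had 69.2, 67.2, 62.4, 68.8 and 65.7 CPM.

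Few of the listed G protein-coupled receptors were present. Of 99 islet and nutrient receptors measured, 16 were present (16.2%) and 48 had 0 counts, with a median of 0.0118 CPM. Oxtr, the oxytocin receptor, was the highest of the list with 262, 272, 269.5, 268 and 274 CPM and 178 ± 3.54 TPM. Avpr1b, the vasopressin V1b receptor, had 65.3, 62.7, 64.9, 66.1 and 65.3 CPM and 51.2 ± 0.932 TPM. Both belong to 1 receptor family and are known to raise glucagon release. Between them in the list stood Lphn1, the latrophilin adhesion receptor, at 61.3 ± 3.37 TPM. The list does not hold every G protein-coupled receptor, so this order is that of its members alone. Left out of it were, for example, Celsr3 and Gpr81, with means of 397 and 231 CPM. The prostaglandin receptor Ptger1 (56.7 ± 1.74 CPM), Lgr4 of R-spondin signalling (48.0 ± 1.84 CPM), the neuropeptide Y receptor Npy1r (32.1 ± 2.15 CPM) and the lipid receptor Gpr119 (18.2 ± 1.18 CPM) were also present. Somatostatin receptors were near the threshold, Sstr3 at 3.49 ± 0.912 and Sstr2, the main one of α cells, at 1.75, 2.15, 2.07, 2.51 and 2.19 CPM, while Sstr1, Sstr4 and Sstr5 had 0 counts. The calcium sensor Casr had 2.85, 3.53, 3.61, 2.87 and 4.15 CPM. Receptors for glucagon itself (Gcgr), GLP-1 (Glp1r) and some for adrenaline (Adrb3, Adra1a and Adra1b) and the muscarinic receptor gene Chrm3 had 0 counts.

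Receptor tyrosine kinases were present in 19 of 58 cases (32.8%). Ntrk2, the BDNF receptor, had 416, 413, 414, 430.5 and 431 CPM. Per length, Ryk, a Wnt receptor, Ddr1, a collagen receptor, and Ntrk2 were at 80.6 ± 2.38, 79.9 ± 2.10 and 69.3 ± 1.62 TPM, the first 2 within 1 SD of each other, and with the longest transcript as length Ntrk2 was ahead (120.4 TPM against 93.8 and 77.6). The insulin receptor Insr had 62.8, 64.2, 65.6, 61.9 and 63.8 CPM, whereas its relative Igf1r, the IGF-1 receptor, had 0, 0.213, 0.294, 0.233 and 0.0448 CPM, under 1 in each library. Egfr, Met, Kdr and Ntrk3, receptors for EGF, HGF, VEGF and neurotrophin 3, had 0 counts. Of 39 cytokine, TGF-β and growth hormone family receptors 22 were present (56.4%). Il1r1, the interleukin-1 receptor, was far above the rest with 1028, 1049, 1017, 1047 and 1093 CPM and 522 ± 15.9 TPM, next to 185 ± 5.82 for the TNF receptor Tnfrsf1a and 61.4 ± 1.94 for Il6st, the shared gp130 subunit. The ligand-binding partner of gp130, Il6ra, had 0 counts, and so had the TGF-β type II receptor Tgfbr2, although the type I gene Tgfbr1 had 84.2 ± 4.22 CPM.

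Potassium channels were selective, with 19 of 79 pore and sulfonylurea receptor genes present (24.1%), 30 undetected and a median of 0.0573 CPM. The ATP-sensitive channel was represented by both subunits, the sulfonylurea receptor Abcc8 (258, 256, 241, 254 and 243 CPM) and the pore Kcnj11 (47.5, 51.7, 48.8, 54.0 and 51.0 CPM), at a TPM ratio of 2.25 ± 0.128. Abcc8 (98.2 ± 3.52 TPM), Kcnh6 (81.5 ± 3.32) and Kcnh2 (75.8 ± 1.11), the latter pair being ether-a-go-go related channels, were among the highest per length. The 2-pore channels Kcnk3 (TASK-1) and Kcnk16 (TALK-1) had 32.1 ± 1.39 and 8.54 ± 1.32 CPM. Shaker genes Kcna2, Kcna3 and Kcna4 and the M-current genes Kcnq3 and Kcnq5 had 0 counts.

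Among 25 pore genes of voltage-gated calcium, sodium and HCN channels 9 were present. The L-type gene Cacna1c had 303, 317, 317, 330.4 and 338 CPM and 48.1 ± 2.11 TPM, against 5.82 ± 0.444 TPM for another L-type gene, Cacna1d. The P/Q-type gene Cacna1a was trace with 0.604, 0.852, 0.441, 0.481 and 0.761 CPM, and the N-type gene Cacna1b, the T-type gene Cacna1h and the leak channel gene Nalcn had 0 counts. Another T-type gene, Cacna1i, was present at 21.8 ± 1.40 CPM. Sodium channels Scn8a (66.8, 71.5, 72.2, 70.6 and 67.9 CPM) and Scn9a (50.5, 54.8, 53.8, 54.4 and 59.4 CPM) were both present, and Scn3a, an islet sodium channel, was trace at 2.18, 1.67, 0.926, 1.27 and 1.54 CPM. Hcn2, a pacemaker channel, had 126 ± 5.26 TPM, the highest of this group per length. The auxiliary genes present were 5 of 20, among them Cacna2d1 (144 ± 5.54 CPM), Cacng7 (117 ± 5.16), Cacnb3 (21.8 ± 1.33) and Cacnb2 (7.16 ± 1.10).

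Store-operated, release and TRP channels were present in 19 of 42 cases, led per length by the calcium sensor Stim2 (159 ± 6.32 TPM), then Trpm7, a magnesium and calcium channel (43.9 ± 1.21). The other sensor, Stim1, had 10.3 ± 0.731 TPM (19.3 with the longest transcript as length). The pore genes Orai2, Orai3 and Orai1 had 17.4, 17.5 and 8.18 TPM, and the inositol trisphosphate receptor Itpr1 had 91.2 ± 3.30 CPM with Itpr2 at 0.785 ± 0.272. Chloride channels and anoctamins were present in 17 of 30 cases (56.7%), among them all of Lrrc8a, Lrrc8b, Lrrc8c and Lrrc8d, subunits of the volume-regulated channel, at 35.5 ± 2.26, 20.6 ± 1.36, 41.5 ± 2.85 and 98.2 ± 3.55 CPM.

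Ligand-gated channels were present in 12 of 65 cases (18.5%), and 6 of the 12 encode glutamate receptor subunits. Of the 12, 11 are given here. The AMPA subunits Gria2 (146, 152, 143, 144 and 147 CPM) and Gria3 (53.8 ± 2.94 CPM), the kainate subunits Grik5 (103 ± 3.02 CPM) and Grik2 (27.5 ± 1.07 CPM) and the obligate NMDA subunit Grin1 (131, 136, 131, 136 and 132 CPM) were present, while Gria1, Gria4 and Grin2b had 0 counts. Grin2d, which would pair with Grin1, was trace at 1.36, 0.913, 0.970, 0.860 and 1.28 CPM. The GABA-A α subunit genes Gabra2, Gabra3 and Gabra6 had 0 counts. Glrb, the glycine receptor β subunit, had 80.5 ± 4.59 CPM, with Glra1 at 0. The nicotinic genes Chrnb2 (53.6 ± 0.603 CPM), Chrna7 (4.15 ± 0.707 CPM) and Chrna4 (1.24 ± 0.284 CPM) and the ATP-gated P2rx4 (36.3 ± 2.79 CPM) were also present, as was Grin3b (3.65 ± 0.901 CPM).

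**Figure D4:**
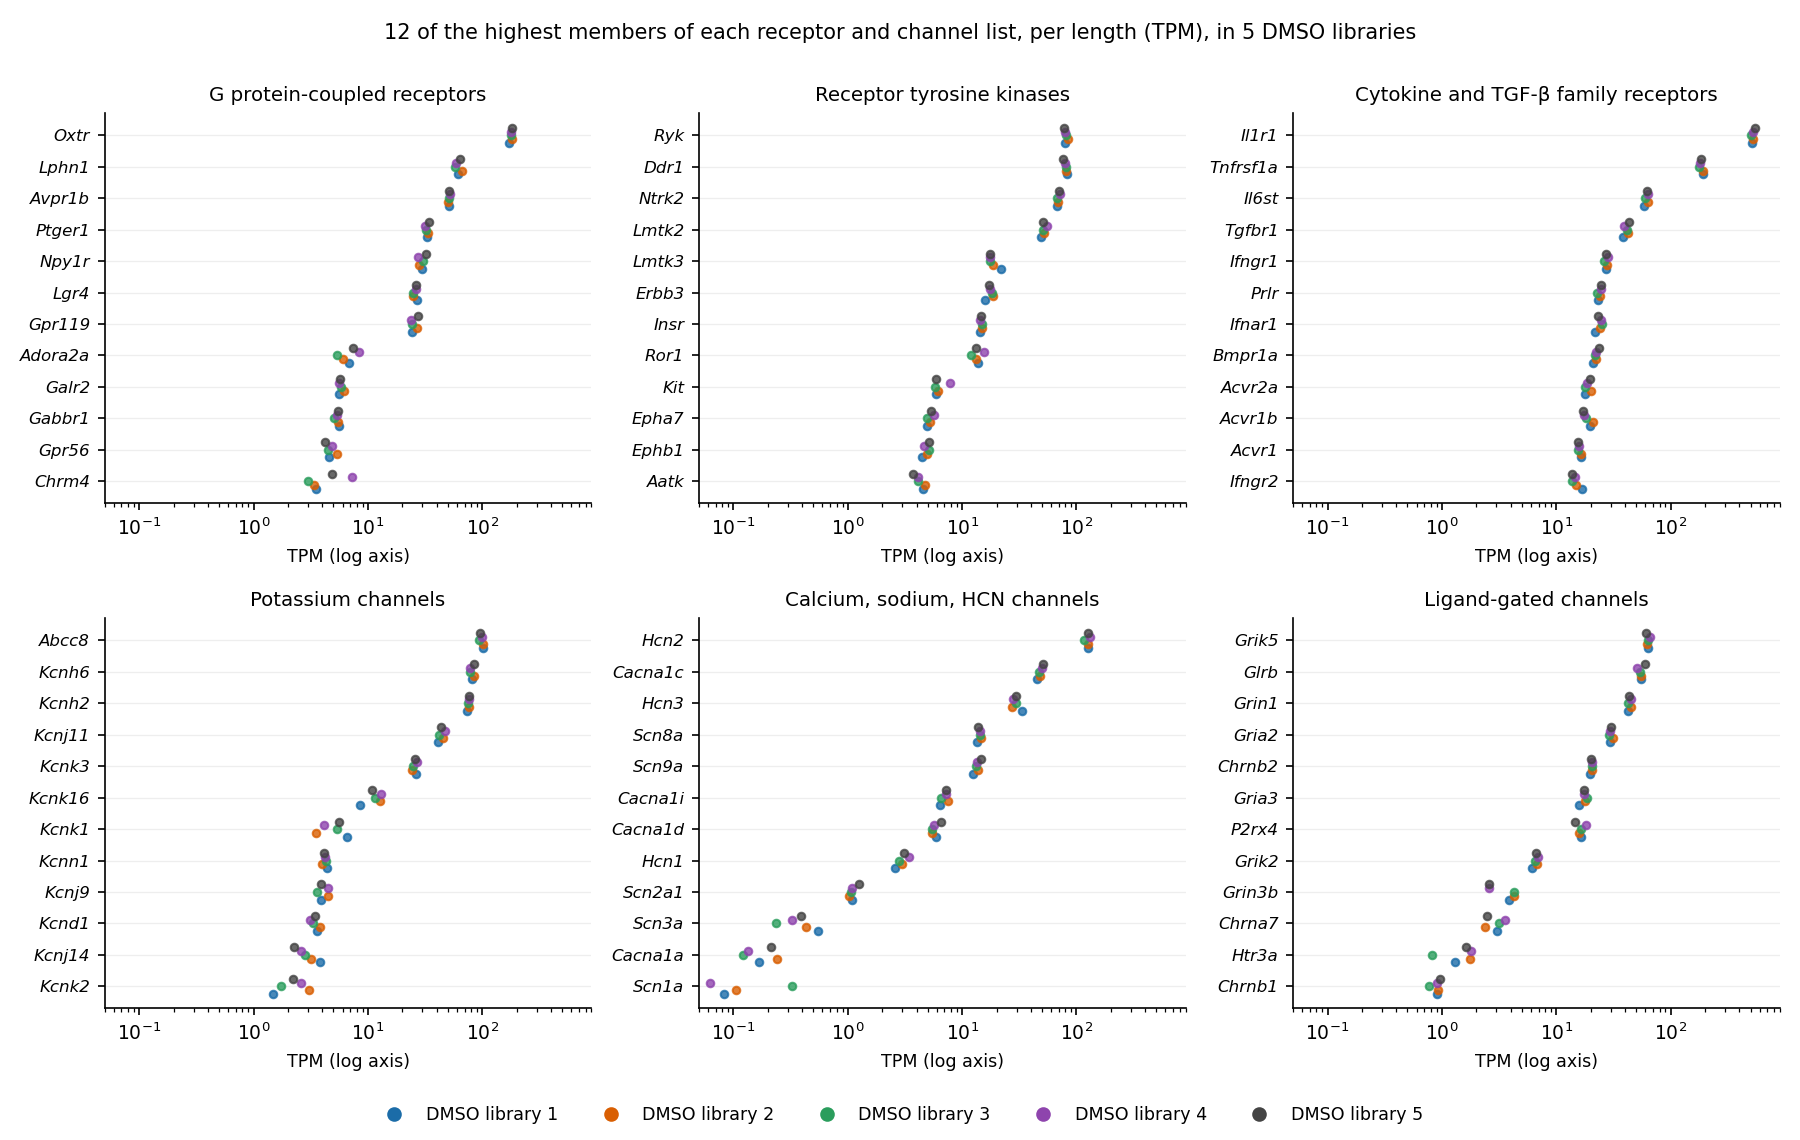
TPM (log axis) of 12 of the highest members of each of 6 receptor and channel lists, 1 colour per DMSO library. Il1r1 is the highest of all 6 panels, Oxtr leads its panel ahead of Lphn1, and the 5 libraries lie close together except for low genes such as Cacna1a and Scn1a.

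Of 36 uptake and nutrient genes 24 were present (66.7%), with a median of 57.2 CPM. The hexokinase Hk1 had 309, 319.9, 312, 325 and 316 CPM, and Hk2 was trace at 0.898, 0.685, 0.588, 0.379 and 0.328 CPM. G6pc, the liver glucose-6-phosphatase, had 0 counts. The glucose transporter Slc2a1 (GLUT1) was at 86.1, 85.0, 65.2, 67.4 and 66.2 CPM, and Slc2a3 (GLUT3) at 75.9, 72.4, 57.0, 60.0 and 60.5 CPM, both higher in libraries 1 and 2 than in the other 3. Ldha, the muscle-type lactate dehydrogenase, had 277, 216, 159.6, 167 and 149.8 CPM, and Slc16a1, the MCT1 lactate and pyruvate transporter, 135, 142, 137, 135 and 132 CPM. Both are known to be very low in adult β cells. The ratio of Ldhb to Ldha in TPM was 1.23 ± 0.329 and ranged from 0.753 to 1.52, below 1 in library 1 where Ldha was highest. The amino acid enzymes Glul, glutamine synthetase (251 ± 11.7 CPM), and Glud1, glutamate dehydrogenase (98.9 ± 8.15 CPM), were present.

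Proliferation genes were widely present: 32 of 37 listed cycle and tumour suppressor genes passed 1 CPM in each library (86.5%; median 100.4 CPM). Mki67, the proliferation antigen, had 1232, 1268, 1224, 1290.1 and 1313 CPM and Top2a, topoisomerase IIα, 989, 1002, 998, 1001 and 999.6 CPM. The cyclin D genes were unequal, Ccnd2 with 151, 156, 145, 154 and 156 CPM and Ccnd1 with 2.49, 2.13, 2.78, 1.50 and 2.61 CPM. Of the Myc family, Mycn had 4.93, 5.48, 5.58, 5.14 and 4.90 CPM, Myc 0.744, 1.08, 0.382, 0.379 and 0.567 CPM and Mycl 0, 0, 0, 10 and 0 counts. Cdkn2a, whose transcripts encode the inhibitors p16 and p19ARF, had 153, 148, 156, 152 and 143 CPM, and the tumour suppressors Trp53 (64.1 ± 2.02 CPM) and Men1 (100.4 ± 2.75 CPM) were present. The viral T antigen is not a mouse gene and was not measured.

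Of 33 imprinted genes measured, 21 were present (63.6%). Gnas, Peg3, Zdbf2 (1685 ± 95.2 CPM) and Grb10, an adaptor that restrains insulin signalling (946 ± 12.4 CPM), stood by counts at ranks 9, 12, 23 and 68. The amino acid transporter Slc38a4 had 566 ± 14.9 CPM. Within the Dlk1-Meg3 region the non-coding Meg3 (38.7, 40.6, 36.9, 35.7 and 34.4 CPM) and Rian (55.7, 54.6, 50.6, 51.2 and 50.5 CPM) were present and Dlk1 had 0 counts. Igf2, a fetal growth factor gene, had 0, 3, 0, 0 and 0 counts, its non-coding neighbour H19 28, 20, 13, 9 and 20, and Igf2r, the receptor that clears its product, 229 ± 8.50 CPM. Of the sex-linked genes, the X-encoded Ddx3x (519 ± 11.9 CPM) and Eif2s3x (238 ± 6.55 CPM) were present, their Y partners Ddx3y, Eif2s3y, Kdm5d and Uty had 0 counts, and Xist, the RNA that silences an X chromosome, had 0.403, 0.700, 0.426, 0.802 and 0.702 CPM.

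Immediate early genes were present in 21 of 26 cases (80.8%), at modest levels for most. Fosl2 (389, 388, 346, 352 and 350.4 CPM) and the phosphatase gene Dusp1 (245, 235, 219.6, 230.4 and 222 CPM) were high, whereas Fos had 6.30, 4.85, 4.52, 5.09 and 5.75 CPM and Egr1 11.5, 9.10, 7.54, 8.98 and 7.15 CPM, and Egr3 had 0 counts.

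Of 34 cadherin and cell adhesion genes 16 were present (47.1%), near the share of all protein-coding genes. N-cadherin, Cdh2, had 159, 164, 158, 167 and 158 CPM and NCAM, Ncam1, 79.4, 76.3, 73.6, 80.2 and 73.6 CPM. E-cadherin, Cdh1, had 0 counts, as had the epithelial adhesion gene Epcam, the claudins Cldn3 and Cldn4, and the connexins Gja1 and Gjb1. The surface antigens Cd9, Cd24a and Cd44 had 0 counts too. The integrin Itgb1 (286 ± 3.02 TPM), the synaptic adhesion gene Nlgn2 (136 ± 4.51 TPM) and the integrin Itga6 (108 ± 2.80 TPM, or 178 with the longest transcript) were the highest per length, and Gjd2, the connexin 36 gene that couples β cells, had 4, 4, 8, 3 and 0 counts.

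Among genes annotated as long non-coding RNA, the nuclear transcripts Malat1 (777, 1074, 639, 691 and 667 CPM), with library 2 above the others, and Neat1 (460.4, 473, 486, 449 and 426 CPM) were high. With them stood the unnamed Gm26924 (789, 1229.8, 707, 751 and 1138 CPM) and Gm26825 (775, 786, 804, 795 and 789 CPM). The class is that of the annotation alone, and which RNA the reads of Gm26924 came from was not tested. Tug1 had 132 ± 4.91 CPM.

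The 5 libraries were close to each other. For 10140 genes with a mean of at least 5 CPM, the biological CV, the SD over libraries after subtraction of the counting part divided by the mean, had a median of 4.33%. It exceeded 20% for 65 genes. Of those 65, 27.7% overlapped another gene model on the same strand that had a mean of at least 1 CPM, against 2.78% of all 10140. Pyurf, a small mitochondrial chaperone gene, had the highest value, from library 4 at 20.8 CPM against 3.85 to 6.22 in the other 4, and Mfsd4, a transporter gene, ranged from 1.52 CPM in library 4 to 27.7 in library 2. For 3 of the 15 most variable genes the sum with an overlapping model had a CV over 1.5 times lower than that of either part, where of several overlapping models the one with the steadiest sum was taken. Rnasek had 29.1, 21.9, 5.94, 17.2 and 7.30 CPM and a CV of 60.1%, Gm21988 had 28.8%, and their sum had 6.35%. The model RP23-220D12.12 had 55.8, 72.5, 65.8, 47.8 and 26.0 CPM and 33.7%, Cpne1, a phospholipid-binding protein gene, had 31.5%, and their sum had 6.53%. Gm21981 had 47.7%, Tomm6 16.0% and their sum 4.38%. For Gm21992 and RP24-288C12.6 the sums, at 3.59% and 4.02%, varied more than the larger partners Rbm14 and Rpl24 alone, at 2.91% and 1.79%. How the authors' counting divided reads between overlapping models was not tested.

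Some genes were higher in libraries 1 and 2. Pfkfb3, which makes the activator of phosphofructokinase, had 12.8, 10.3, 5.60, 7.42 and 7.24 CPM and a CV of 32.8%, and the mitophagy receptor gene Bnip3 had 122, 100.2, 71.2, 75.5 and 74.5 CPM. In both, as in Ldha and Slc2a1, libraries 1 and 2 lay above the other 3. These 4 genes were set together after their values were seen, and whether they share a pathway was not tested. Among glycolytic genes, Hk1, Pfkp and Gapdh had CVs of 1.94%, 4.22% and 5.54%, and Pfkl had 14.6%. Gapdh too was highest in libraries 1 and 2, at 2415 and 2278 CPM against 2077 to 2215 in the others. Principal components of log2 CPM carried nearly equal shares, 27.4%, 26.9%, 23.6% and 22.2%, and no library stood apart on the first, where libraries 1 and 4 scored 5.45 and 5.08 and libraries 2, 5 and 3 scored -5.24, -4.80 and -0.49. Genes with the highest loadings there were Pyurf, Bri3, Bloc1s4, Rnasek, Glrx5, Tmem160, Endog, Rab24, Insm1 and Macrod1, and those with the lowest were led by Mfsd4, Gm20716 and Gm26924. The loadings correlated across 10079 genes with GC content at a rho of 0.14 and with the length of the longest transcript at -0.25, as a description of genes that share the libraries.

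**Figure D5:**
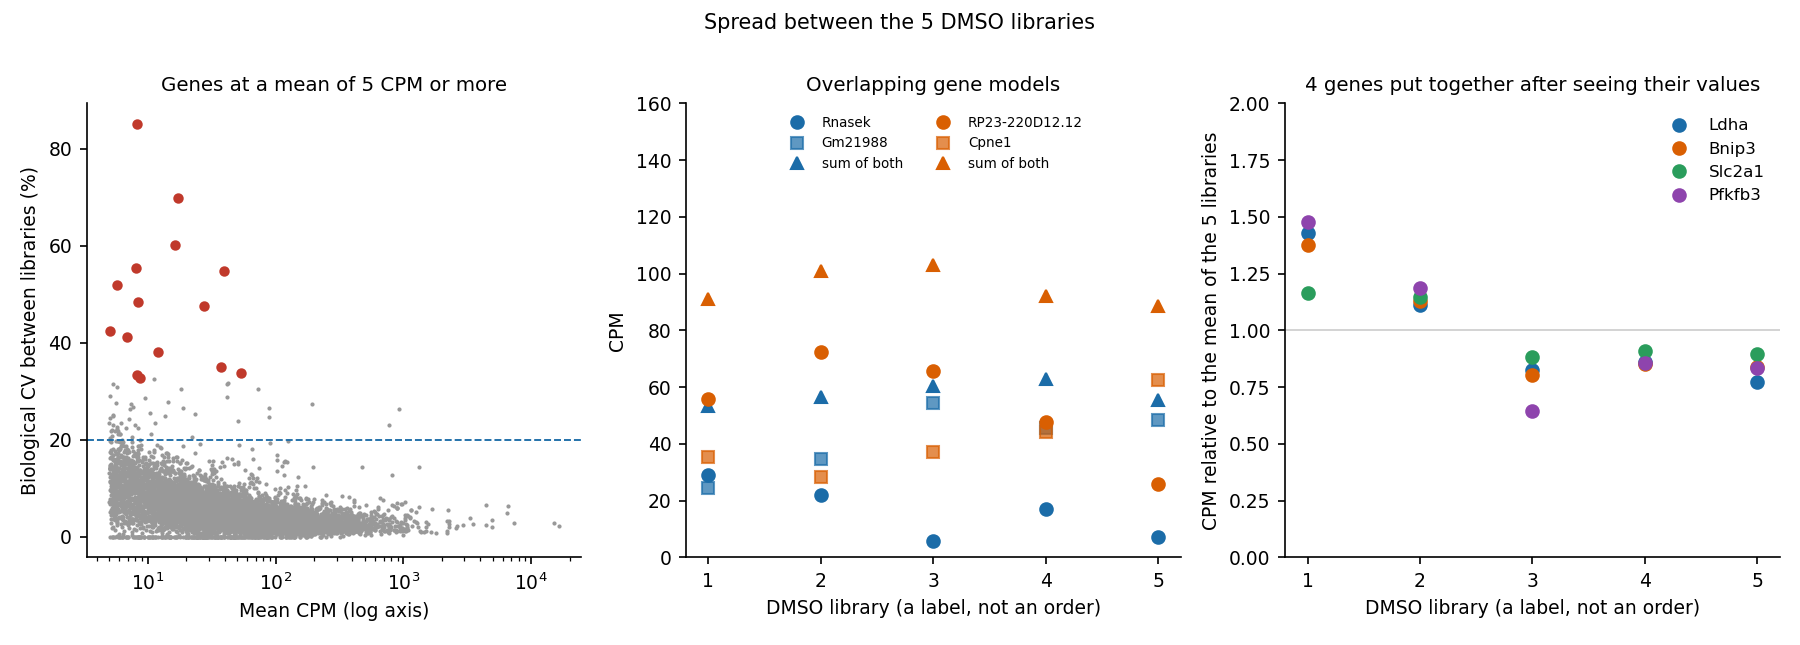
Left, biological CV (%) against mean CPM (log axis) for 10140 genes, with the 15 most variable in red and a dashed line at 20%. Middle, CPM by library for Rnasek and RP23-220D12.12, their overlapping models and the sums, which vary less than their parts, and right, CPM relative to the 5-library mean for Ldha, Bnip3, Slc2a1 and Pfkfb3, with libraries 1 and 2 above 1.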

How the data were processed

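The authors deposited whole-number counts by Ensembl gene, of which the 5 DMSO columns were used, and a second table with a signal scaled by library, used in 1 alternative for Gcg. HISAT2, StringTie, DESeq2 and the build mm10 are named per the submitters' processing notes, without versions or roles, and settings for strand and multi-mapping are not given there. Entries of exactly 4 counts were more frequent than entries of 3 or 5 (375 to 428 genes per library against 268 to 311 and 205 to 235), so 1 count need not be 1 read. The deposited counts were therefore treated as estimated counts rather than the read counts the planned design assumed. Core genes such as those of the ribosome and proteasome were not at 0 apart from tissue-restricted forms. All columns were matched by name, and 0 columns were left unmapped.

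CPM was taken from the column total. TPM used the union of annotated exons of GENCODE M21 (GRCm38), where 96.5% of identifiers matched, and polyadenylated capture leaves transcripts without a poly(A) tail under-counted. The biological CV is the variance of CPM over 5 libraries minus its Poisson part. It was tested on simulated counts with the same Poisson part, so that test does not cover counts that are not reads. Principal components used log2 CPM with 0.5 added. No group was compared with another and no p-value was computed. Analysis used Python 3.11.15 with pandas 2.3.3 and numpy 2.4.6, and R 4.3.3 with edgeR 4.0.16 for scaling.

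Named genes were the 30 highest by mean CPM, the 10 highest long non-coding RNAs, all islet marker lists, up to 10 highest and up to 10 trace or undetected members of each of 37 lists, the 15 genes with the highest CV and the 10 at each end of the first component. Some of them are not reported here, and further list members were named after their values were seen. The lists and members were chosen with earlier results of these data known. Promoter sequences are RefSeq's.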

Additional observations from a re-analysis of the deposited data

Results flagged for a closer look

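The 5 DMSO values of each gene given with values and present in all libraries, and of 5 library-wide measures, were checked for a library lying apart from the other 4 (gap to the nearest value over the whole range, critical value 0.71 for 5 libraries). Of 201 sets checked 3 were marked, where chance marks about 1 in 20. Nr3c2, the mineralocorticoid receptor gene, was at 16.1 CPM in library 3 against 14.2 to 14.6 in the others. Rfx6, a factor of endocrine differentiation, was at 57.0 CPM in library 4 against 53.9 to 54.7. Trp53, which encodes p53, was at 67.6 CPM in library 4 against 62.6 to 64.0. No cause was tested.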

How the results depend on the processing

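The number of genes present was 9938 at 5 CPM and 12079 at 0.5 CPM in each library, and 11399 to 11802 with a mean of 1 CPM, other scalings or entries of 1 symbol summed. Genes with 0 counts rose from 13916 to 15416 when up to 3 counts were allowed. Without mitochondrial genes the 10 most abundant genes took 4.16% of counts in place of 7.41%, because the column total and the list both changed, and Gcg had 16367 CPM on a total without mitochondrial genes and Gcg. With each library left out in turn 11454 to 11460 genes were present, 14254 to 14304 had 0 counts, and the median biological CV was 4.07% to 4.26% in place of 4.33%. A mean over 5 libraries can move little when 1 is left out, so nothing is drawn from that for the levels and shares. The median biological CV was 4.80% and 3.77% for genes above 1 and 20 CPM, 5.87% from edgeR's common dispersion, and 2.93% with a counting part 4 times larger, an alternative added after the data were seen. Of 259 list counts under other thresholds or with a library left out, 8 moved by over 1.5 times, all through the 0.5 or 5 CPM threshold. At 5 CPM 10 of 99 G protein-coupled receptors, 10 of 79 potassium channels and 5 of 49 factors of other lineages were present. TPM depended on length: with the longest transcript 158 of 220 values moved by over 1 SD, by factors of 0.787 to 2.28, and values on that length stand beside the orders it changed. No paired analysis was possible because 1 group was described and nothing was tested.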

Other observations

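Of 171 genes that the table places on the Y chromosome 2 were present, beside the 4 undetected Y partners of X-linked genes. Of 86 ribosomal protein genes and 37 mitochondrially encoded genes, the first took 2.20 to 2.38% of counts across the 5 libraries and the second 6.18 to 6.64%. Entries of exactly 8 counts (195 to 228 genes per library) were also more frequent than entries of 9 (131 to 168).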
